A study of Mus musculus with 2 samples.

Results

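The cells described here are 187 epithelial cells recovered among leukocytes of the mouse colon. They were chosen from their own counts of unique molecular identifiers (UMIs, the tags that mark single RNA molecules). A barcode was kept with at least 500 UMIs, at least 200 genes and at most 10% mitochondrial UMIs. It was called epithelial with at least 2 Epcam UMIs, at least 5 UMIs of the keratin genes Krt8, Krt18 and Krt19 together, and none of Cd3e, Cd3g (T cell receptor complex) or Cd79a (B cell receptor complex). This gate held 57 of 14379 kept barcodes in the library CD163_FL and 130 of 10012 in the library CD163_NC, or 187 of 24391 in all. Before the filters the libraries had 15270 and 10390 barcodes, with 131306539 and 94729872 UMIs. They shared 49 barcode sequences, none of them among the members.

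The 2 libraries are the 2 groups, with 1 library each, so no difference below has a replicate check. Both were made from single cells of the lamina propria, the connective tissue under the gut lining, with the 10x 3′ kit V3, and both carry the label cd45+, after the surface protein that leukocytes share. Per the labels' protocols, cells from the colon were taken from a Percoll density gradient, stained and sorted, and dead cells were left out with 7-AAD, a dye that enters them. The series title gives WT animals and animals without CD163+ macrophages as the groups, but the labels tie neither library to either kind, and give no strain, age, sex or number of pooled mice. CD163_FL and CD163_NC are therefore used as names only. Ratios compare 1 library with the other and not the conditions, and every 95% interval covers counting error only.

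The colonic epithelium is a single sheet of cells renewed from stem cells at the base of the crypts. Absorptive colonocytes take up water, salts and short-chain fatty acids, and goblet cells secrete the mucus that keeps bacteria off the sheet. Epithelial cells also answer cytokines: type I and type III interferons induce antiviral genes, and interferon gamma induces MHC class II, which presents peptides to CD4 T cells. Neither epithelial class carries CD45 (gene Ptprc), so a sort for that protein would leave few of them, and the share of epithelial cells can be set by the sort.

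The epithelial share of kept barcodes was 0.396% (0.300 to 0.513, exact Clopper-Pearson interval) in CD163_FL and 1.30% (1.09 to 1.54) in CD163_NC, a ratio of 0.305 (0.220 to 0.420). The cells were large in RNA. Their median was 30581 UMIs and 5666 genes in CD163_FL and 28180.5 UMIs and 5461.5 genes in CD163_NC, whereas the other kept barcodes had medians of 6623.5 and 6081 UMIs. They supplied 1.42% of the kept UMIs of CD163_FL and 3.92% of those of CD163_NC. The mitochondrial limit removed 31 cells of CD163_FL and 59 of CD163_NC that otherwise met the gate. With that limit at 25% the libraries held 74 and 174 epithelial cells, a CD163_NC share of 1.69%.

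The edges of the gate were thinly filled for keratins and less so for the lymphocyte genes. Just inside, 2 cells of CD163_FL and 3 of CD163_NC had exactly 2 Epcam UMIs, and 1 and 4 cells had 5 to 9 keratin UMIs. Just outside, 1 barcode of CD163_FL and 11 of CD163_NC passed on keratins with 1 Epcam UMI, and none in either library passed on Epcam with 3 or 4 keratin UMIs. A further 62 barcodes of CD163_FL and 31 of CD163_NC passed on Epcam with at most 2 keratin UMIs. The lymphocyte genes excluded 27 of 84 otherwise passing barcodes in CD163_FL and 44 of 174 in CD163_NC, of which 15 and 24 had only 1 such UMI.

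In most members the label fits the markers that the gate did not use. Members had a median of 57 Epcam and 292 keratin UMIs in CD163_FL and 46 and 226 in CD163_NC, which the gate itself asked for. Phgr1, a small protein of the gut lining at chr2:118772769-118778165 (plus strand), was found in 54 of 57 cells of CD163_FL and 123 of 130 of CD163_NC. Gene positions here and below are from the GENCODE annotation, mouse release 21, on GRCm38.p6. Lgals4, a lectin of intestinal epithelium, was found in all 57 and in 128 of 130, and the junction gene Cldn7 in 56 and 127. Muc2, the gel-forming mucin of goblet cells (chr7:141690340-141754693, plus strand), was found in 15 and 30 cells, and Car1, a carbonic anhydrase of colonocytes (chr3:14766216-14808368, minus strand), in 33 and 57. Ptprc, the gene of CD45, had a median of 0 UMIs in the members of both libraries, with a UMI in 27 of 57 and 36 of 130 cells. The whole list of 12 pan-leukocyte genes summed to 375 CPM (UMIs of a gene per 1000000 UMIs summed over the cells) in CD163_FL members and 177 CPM in CD163_NC members, against 11197 and 8474 CPM in T cells. Those T cells, with at least 3 Cd3e or Cd3g UMIs, no Cd79a and fewer than 5 keratin UMIs, numbered 4989 and 2267, with median depths of 8215 and 6267 UMIs.

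**Figure D1:**
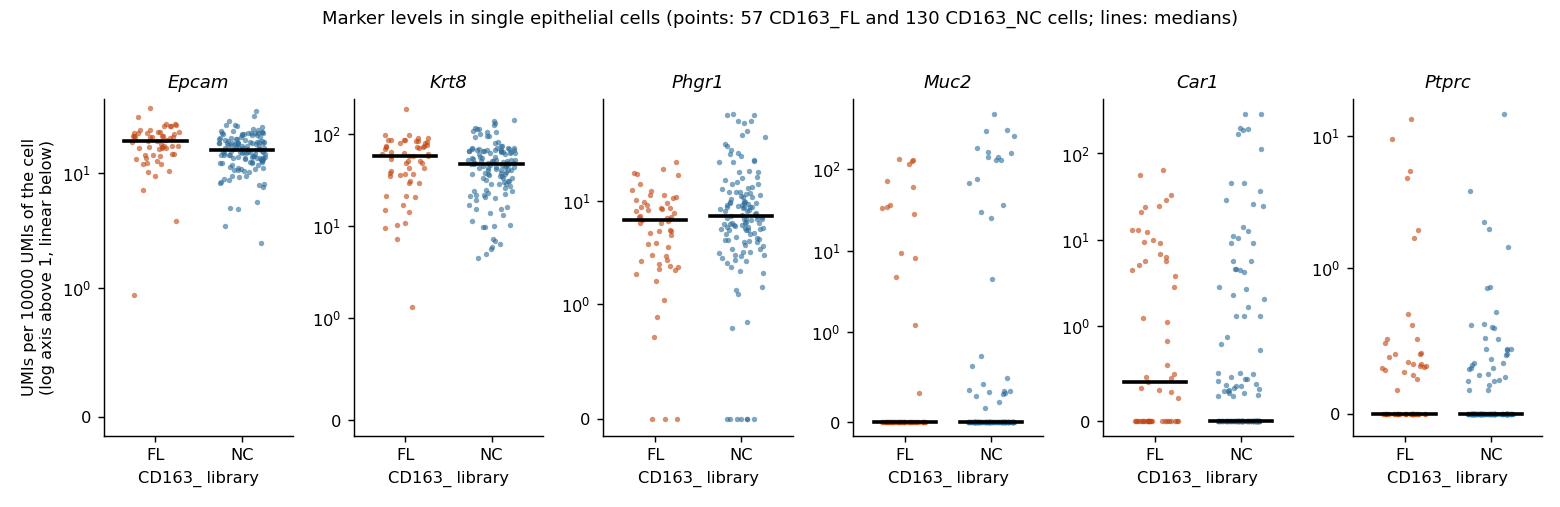
UMIs per 10000 UMIs of the cell (log axis above 1, linear below) for the epithelial markers Epcam, Krt8, Phgr1, Muc2 and Car1 and for Ptprc, with a point for each of 57 CD163_FL and 130 CD163_NC cells and a line at the median. Epcam medians were 18.9 in CD163_FL and 15.8 in CD163_NC, Muc2 was high in a small set of cells, and Ptprc medians were 0 in both.

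Without any use of the gate genes, the members carried a broad colonic programme. The genes with the highest ratio of member CPM to the CPM of all other kept barcodes in both libraries were led by Reg3b, a secreted lectin that kills bacteria, at 1195-fold in CD163_FL and 239-fold in CD163_NC. Car1 followed at 245-fold and 126-fold, and the kinase gene Frk at 163-fold and 107-fold. Phgr1 stood at 125-fold and 88.4-fold. Others among the leading 20 were Guca2a (the peptide guanylin), Slc4a4 (bicarbonate transport), Cldn23 and Dsg2 (cell contacts), Cdx1 (intestinal identity), Aqp4 (water) and Nlrp6 (a cytosolic sensor). Because the cells were gated on epithelial genes, these folds are a description and carry no test.

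Of the lists of other epithelial types, some were near 0 and others held shared genes. Of 15 tuft cell genes only Alox5ap reached the 20 UMIs asked of a measured gene, and the list summed to 27.3 CPM in CD163_FL and 10.9 CPM in CD163_NC. The tuft cell genes Il25 and Trpm5, the enteroendocrine genes Chga and Pyy, the M cell gene Gp2 and the small-intestinal genes Lct and Apoa4 were at 0 UMIs in the members of both libraries. The M cell list as a whole had 5 of 7 genes measured and summed to 153 CPM in CD163_FL and 173 CPM in CD163_NC, against 187 and 125 CPM in T cells. The small-intestinal list had 4 of 12 genes measured and summed to 532 and 501 CPM, most of it from Fabp2, a fatty acid-binding protein gene, at 312 and 304 CPM, which ranked 6 among the genes with the highest member-to-other ratios.

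Clustering the 187 members on their own genes gave 6 subclusters, of which 2 could be named from fixed marker lists. The goblet cell-like subcluster (number 4) held 28 cells, 12 of CD163_FL and 16 of CD163_NC. Its leading genes were Retnlb, Muc2, Spink4, Mptx1, Clca1, Ang4, Reg4, Fcgbp, Sval1 and Ccl6, and 25% or more of its cells had a UMI of 14 of the 15 goblet cell genes. The list of deep crypt secretory cells met the naming rule there too. Of its 6 genes 6 were detected and 3 were leading genes (Reg4, Spink4 and Mptx1). The name goblet cell-like therefore does not set these secretory types apart. The absorptive colonocyte-like subcluster (number 5) held 24 cells, 5 of CD163_FL and 19 of CD163_NC, and was led by Cyp2c55, Car1, Tmigd1, Sptssb, Slc9a3, Aldh1a1, Mal, Dpep1, Saa1 and Prap1, with 13 of 16 absorptive genes detected. Detection alone did not set it apart, with 12 of 16 in subcluster 6 and 11 of 16 in subcluster 2, though 0 were leading genes there. The absorptive list summed to 33244 CPM in subcluster 5 and 23688 CPM in subcluster 6. Muc2 stood at 11364 CPM in subcluster 4 and at most 6.7 CPM elsewhere, and Car1 at 8587 CPM in subcluster 5, with the next highest level at 690.5 CPM in subcluster 2.

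The other 4 subclusters stayed unnamed. Subcluster 1 (51 cells, 6 of CD163_FL and 45 of CD163_NC) was led by Cpm, Nxpe2, Ror1, Adh1, Zfp618, Phlda2, B3gnt7, Hoxb13, Ippk and Id1. Subcluster 2 (34 cells, 32 and 2) was led by Sprr2h, Ncoa7, Ccdc71l, Rgs1, Sprr1a, Reg3b, Zeb2, Vim, Arl14 and Rab8b. Subcluster 3 (31 cells, 2 and 29) was led by the neutrophil granule genes Camp, Ngp, S100a9, Lcn2 and S100a8 and by histone genes, and 18 of 18 cell cycle and 11 of 13 crypt genes were detected in it. Subcluster 6 (19 cells, 0 and 19) was led by Tgm3, Ifit1bl1, Eno3, Atp12a, Ifit1, Isg15, Upp1, Spink1, Ly6g and Tnni1. Subclusters 2, 3 and 6 came almost wholly from 1 library, so each may be that library and not a type, and their sizes are not compared.

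Leukocyte RNA was uneven across these subclusters. In subcluster 2 the pan-leukocyte list stood at 609 CPM, against 153 CPM in the other members, with a UMI of 8 of the 12 genes in 25% or more of its cells and of Ptprc in 47.1%, while 0 of 13 T cell genes were detected. In subcluster 3 the neutrophil list stood at 5819 CPM, against 157 CPM in the other members, but 98.7% of these UMIs lay in 1 CD163_NC cell, and without that cell it stood at 79.5 CPM. In subclusters 2 and 5 a single cell likewise held 74.8% and 89.7% of the list's UMIs. The part of these transcripts in the results below was not tested beyond the values given beside each.

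**Figure D2:**
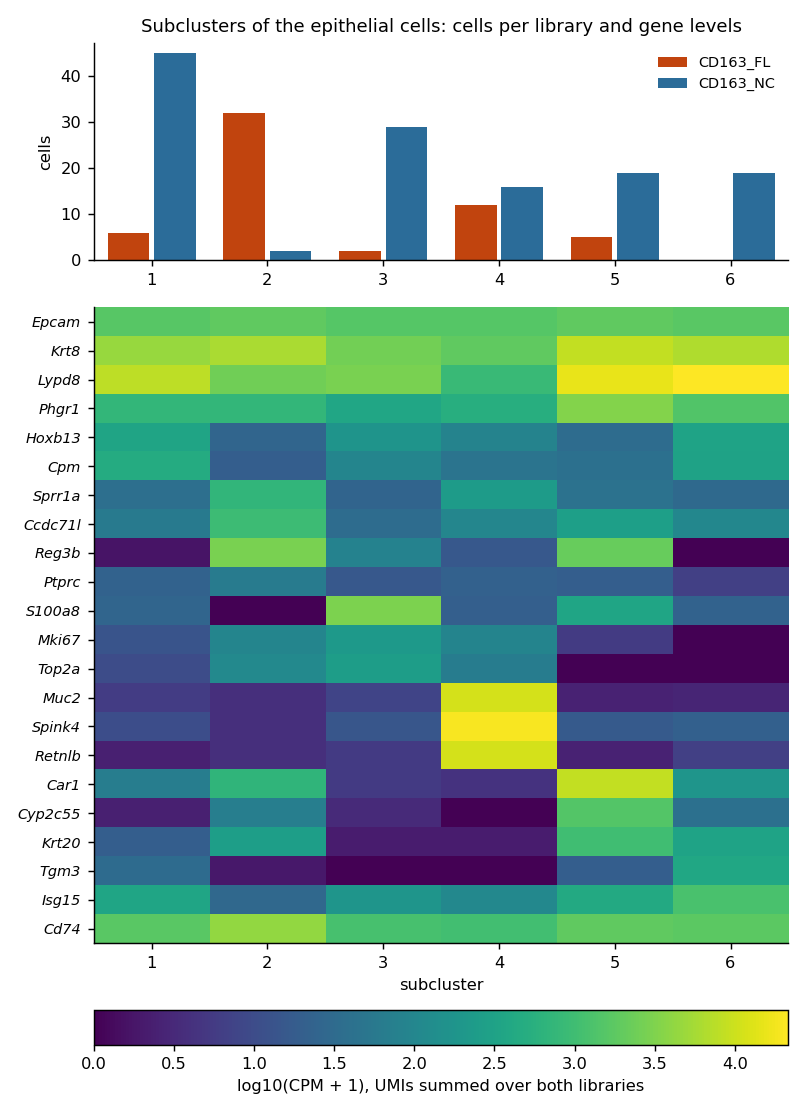
Top, cells of CD163_FL and CD163_NC in each of 6 subclusters of the epithelial cells. Bottom, log10(CPM + 1) of 22 genes from UMIs summed over both libraries, with Muc2, Spink4 and Retnlb high in subcluster 4, Car1 and Cyp2c55 in subcluster 5, Isg15 highest in subcluster 6 at 1253 CPM, and Cd74 highest in subcluster 2 at 4251 CPM.

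For the comparison between libraries, UMIs were summed over the members of each and scaled to CPM. Of 10635 measured genes, 1727 (16.2%) were at least 1.5-fold higher and 1823 (17.1%) at least 1.5-fold lower in CD163_FL, with a median log2 ratio of 0.00 over all measured genes. The members of each gene list below are read against these shares. Most CD163_FL cells (56.1%) lay in subcluster 2, whereas the largest part of CD163_NC cells (34.6%) lay in subcluster 1, so ratios over all members mix levels within cells with the makeup of the 2 sets, and these cannot be told apart. Values within subclusters 1, 4 and 5 are given beside them, from 6, 12 and 5 cells of CD163_FL. The response genes also took part in the clustering, so the forming of a subcluster itself shapes the ratios within it.

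Type I interferon response genes were lower in the epithelial cells of CD163_FL. Of 18 measured genes, 0 were higher and 17 were lower, with a median log2 ratio of -2.46. Isg15, a ubiquitin-like modifier, stood at 32.8 CPM in CD163_FL and 458 CPM in CD163_NC, a log2 ratio of -3.80 (95% interval -4.20 to -3.43). Per cell it ranged from 0 over a median of 0 to 3.17 per 10000 UMIs in CD163_FL, and from 0 over 2.96 to 31.1 in CD163_NC. The ranges overlapped, with the median of CD163_NC close to the highest cell of CD163_FL. Irf7, the transcription factor that amplifies the response, stood at 31.2 and 247 CPM (-2.99, -3.40 to -2.60) and had a UMI in 34 of 57 and 119 of 130 cells. Bst2, which tethers budding viruses, stood at 153 and 633 CPM (-2.05, -2.24 to -1.87).

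The smallest ratios of the list belonged to Ifit1bl1, Ifit1 and Oas2. Ifit1, which binds foreign RNA, stood at 3.28 CPM in CD163_FL and 64.5 CPM in CD163_NC (-4.30), from 6 and 236 UMIs. Its relatives Ifit3 and Ifit1bl1 stood at -3.37 and -5.69, and Oas2, which senses double-stranded RNA, at -3.91. Rsad2, which encodes the antiviral enzyme viperin, was the member within 1.5-fold, at 23.0 and 25.4 CPM (-0.15, -0.71 to 0.39). The 12 genes named for the smallest ratios also held Apol9a at 2.73 and 55.2 CPM (-4.34) and Slfn5, a Schlafen gene, at 4.37 and 71.0 CPM (-4.02), found in 2 and 7 cells of CD163_FL and 76 and 68 of CD163_NC.

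The same direction was found in each of the 3 subclusters with at least 5 cells of both libraries. In subcluster 1, 16 of 18 measured genes were lower and 0 higher (median -1.76), beside 22.5% lower and 20.6% higher of all genes there. In the goblet cell-like subcluster 8 of 12 were lower and 2 higher (-0.99), beside 15.1% and 24.8%, and in the absorptive colonocyte-like subcluster 17 of 17 were lower (-2.12), beside 24.7% lower. Isg15 was at -3.10 (-4.56 to -1.97), -2.47 (-3.53 to -1.56) and -3.38 (-4.84 to -2.24) in subclusters 1, 4 and 5. The same list was also lower outside the epithelium. In T cells 18 of 18 measured genes were lower (median -1.84), beside 21.5% lower of all genes there, and in all other kept barcodes 15 of 18 were lower (median -1.46), beside 20.9%, and whether the epithelial ratios exceed those was not tested. After thinning each cell to 1000 UMIs, 8.93% of epithelial cells of CD163_FL and 27.6% of those of CD163_NC had an Isg15 UMI, against 9.70% and 19.3% of T cells, which can express it as well and held it at 118 and 261 CPM. Unthinned, the shares were 45.6% and 84.6% of epithelial cells, and 45.2% and 58.7% of T cells. Thinned Bst2 was found in 10.7% and 52.8% of epithelial cells, against 6.79% and 20.4% of T cells.

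Genes of MHC class II and of the interferon gamma response were higher in the epithelial cells of CD163_FL. Of 24 measured genes 15 were higher and 0 lower, with a median log2 ratio of 1.08. Cd74, the invariant chain that guides class II molecules to the endosome, was found in every member and stood at 3450 CPM in CD163_FL and 1320 CPM in CD163_NC (1.39, 1.33 to 1.44). Per cell it ranged from 2.73 over a median of 33.8 to 144 per 10000 UMIs in CD163_FL, and from 0.617 over 12.7 to 97.9 in CD163_NC. The ranges overlapped, with the median of CD163_FL above that of CD163_NC. H2-Ab1 (chr17:34257689-34269419, plus strand), a class II beta chain, stood at 901 and 301 CPM (1.58, 1.47 to 1.70), with cell medians of 6.90 and 2.21. Of its UMIs in CD163_FL, 26.0% came from 1 cell. Another CD163_FL cell, with Ptprc at 5.44 per 10000 UMIs, held H2-Ab1 at 52.5. A CD163_NC cell with Ptprc at 14.8 held it at 55.5. H2-Aa and H2-Eb1 were at 1.62 and 1.81, and Ciita, the class II transactivator, at 27.3 and 7.38 CPM (1.89, 1.19 to 2.62), in 26 of 57 and 21 of 130 cells.

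Other genes of the response were mixed. The guanylate-binding protein gene Gbp2 stood at 106 CPM in CD163_FL and 11.2 CPM in CD163_NC (3.24), the GTPase gene Iigp1 at 425 and 92.9 CPM (2.19) and the checkpoint ligand gene Cd274 at 24.6 and 7.38 CPM (1.74). In T cells Gbp2 stood at 112 and 59.2 CPM and Cd274 at 159 and 115 CPM, above the epithelial levels in both libraries. When the T cell UMIs per cell were subtracted as an estimate of free RNA, neither Gbp2 nor Cd274 kept a level above 0 in both libraries, so these genes have no ratio there. Iigp1 was then at 2.39 and Cd74 at 1.51. T cells can make Gbp2 and Cd274 RNA themselves, so for those genes the subtraction cannot tell free RNA from epithelial RNA. The transcription factor gene Irf1 stood at 248 and 208 CPM (0.26). The class I genes B2m, H2-K1 and H2-D1 lay within 1.5-fold, at -0.27, -0.41 and -0.37. Ido1, the enzyme that breaks down tryptophan, stood at 124 and 2.19 CPM (5.83, 4.82 to 7.06), in 25 and 2 cells, with 37.4% of its CD163_FL UMIs in 1 cell.

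The class II difference was also found within subclusters. Of the measured genes 14 of 21 were higher in subcluster 1 (median 0.83), 18 of 21 in the goblet cell-like subcluster (1.63) and 10 of 17 in the absorptive colonocyte-like subcluster (0.73), with 0 lower in each, beside 20.6%, 24.8% and 23.1% of all genes higher. Cd74 was at 1.33, 2.41 and 1.38 in these 3. In T cells 2 of 23 genes of the list were higher and 3 lower (median -0.02), beside 12.7% and 21.5% of all genes, and in all other kept barcodes 7 of 24 were higher and 1 lower (0.04), beside 17.2% and 20.9%. Leukocytes carry class II as well, and 8 of 12 pan-leukocyte genes were higher in the members of CD163_FL (median 1.04). Among them Ptprc stood at 40.4 and 19.7 CPM (1.04, 0.55 to 1.53) and Coro1a, an actin regulator, at 48.1 and 21.6 CPM (1.16). The macrophage and monocyte list summed to 1401 CPM in CD163_FL members and 2046 CPM in CD163_NC members. Of its 7 measured genes 2 were higher (Mrc1 and Il1b) and 2 lower (Lyz2 and Fcer1g). That sum was highest in subclusters 5 and 6, at 4542 and 3740 CPM, and in subcluster 5 Plac8 was the only measured gene of the list. The sum is therefore not read as a level of macrophage RNA. The dendritic cell list, of cells rich in class II, summed to 38.8 CPM in CD163_FL members and 7.65 CPM in CD163_NC members, with 2 of 8 genes measured and 1 and 4 genes at 0 UMIs. Its gene Ccr7, a chemokine receptor, had 24 and 9 UMIs (2.42), and the list stood at 48.1 CPM in subcluster 2, against 10.7 CPM in the other members. The part of leukocyte RNA in the class II result was not tested. Thinned to 1000 UMIs, 91.1% and 63.8% of epithelial cells had a Cd74 UMI, against 12.3% and 15.2% of T cells.

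**Figure D3:**
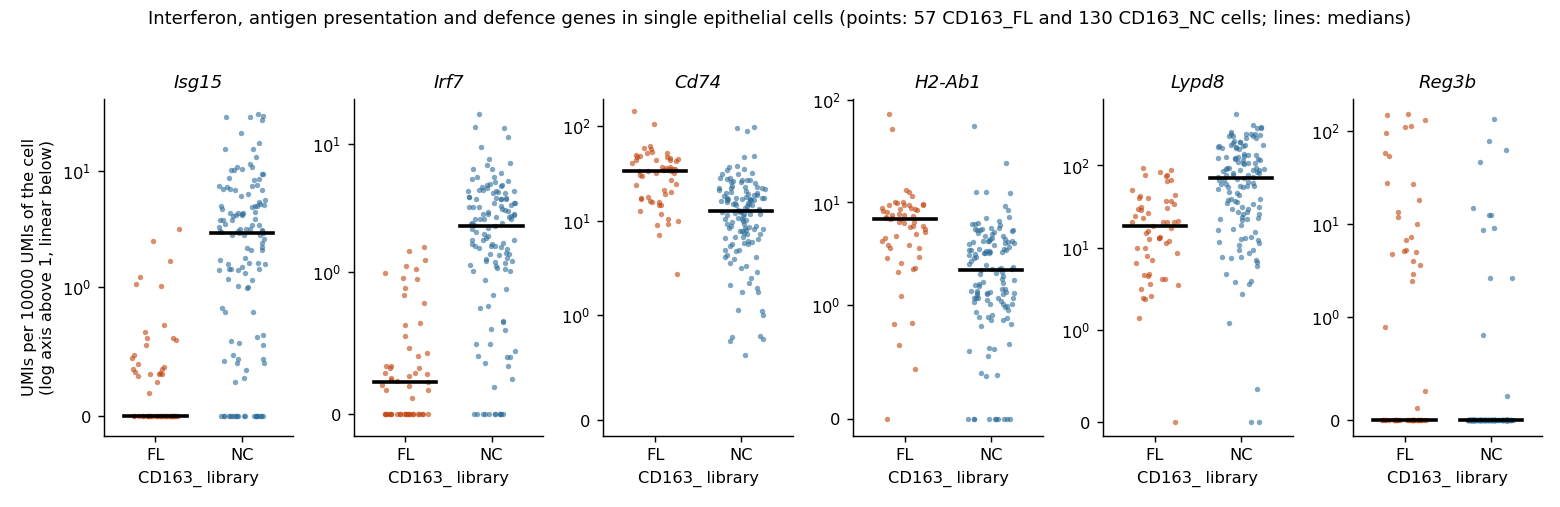
UMIs per 10000 UMIs of the cell (log axis above 1, linear below) for 6 genes, with a point for each of 57 CD163_FL and 130 CD163_NC epithelial cells and a line at the median. Median levels were 0 in CD163_FL and 2.96 in CD163_NC for Isg15, 33.8 and 12.7 for Cd74, and 18.5 and 69.6 for Lypd8, and Reg3b had a median of 0 in both with high cells in each.

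Promoters of some genes of both responses are shown because the lists differ in known control elements, the interferon-stimulated response element (ISRE) of antiviral genes and the Y box of class II genes. The genes shown are picked examples that each hold a match, and they do not follow the ranking by ratio. Shares of each list with a match are given after the sequences. RefSeq sequence on GRCm38.p6 was searched in the 250 bases before each start site, on both strands, for the ISRE letters TTTCNNTTTC and the Y box letters CTGATTGG, and each sequence below shows the matches of 1 motif. Matches of the motifs overlapped each other in 0 promoters. The 140 bases before the start are given 5′ to 3′ on the strand of the gene, with matches on either strand in capitals. Adjoining capitals in Isg15 and Bst2 are overlapping matches of the reverse strand.
Isg15, chr4:156200819-156200958, minus strand, ISRE: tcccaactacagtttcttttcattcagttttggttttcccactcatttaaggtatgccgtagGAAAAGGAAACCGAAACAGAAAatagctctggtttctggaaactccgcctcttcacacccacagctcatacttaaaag
Ifit1, chr19:34640749-34640888, plus strand, ISRE: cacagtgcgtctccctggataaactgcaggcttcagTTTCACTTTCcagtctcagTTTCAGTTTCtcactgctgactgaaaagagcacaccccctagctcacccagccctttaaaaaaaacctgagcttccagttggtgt
Ifit3, chr19:34583389-34583528, plus strand, ISRE: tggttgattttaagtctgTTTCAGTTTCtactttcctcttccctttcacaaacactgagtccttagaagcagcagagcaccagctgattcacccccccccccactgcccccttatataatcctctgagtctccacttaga
Bst2, chr8:71537473-71537612, minus strand, ISRE: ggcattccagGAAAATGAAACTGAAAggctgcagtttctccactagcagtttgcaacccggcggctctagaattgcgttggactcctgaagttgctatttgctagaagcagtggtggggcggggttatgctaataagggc
Gbp2, chr3:142620523-142620662, plus strand, ISRE: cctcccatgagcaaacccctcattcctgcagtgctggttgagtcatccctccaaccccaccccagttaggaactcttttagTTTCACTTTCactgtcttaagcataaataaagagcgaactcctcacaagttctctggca
H2-Aa, chr17:34287824-34287963, minus strand, Y box: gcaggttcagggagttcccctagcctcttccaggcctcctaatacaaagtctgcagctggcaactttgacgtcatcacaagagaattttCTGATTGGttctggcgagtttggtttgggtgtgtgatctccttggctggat
H2-Eb1, chr17:34305727-34305866, plus strand, Y box: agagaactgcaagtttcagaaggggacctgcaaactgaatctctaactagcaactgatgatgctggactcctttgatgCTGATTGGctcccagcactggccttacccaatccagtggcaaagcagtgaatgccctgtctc

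The letters of the ISRE were present in 9 of the 13 type I interferon genes with a promoter in the table (69.2%), namely Isg15, Ifit1, Ifit3, Ifit1bl1, Oas1a, Rsad2, Bst2, Stat2 and Ddx60. They were in 5 of 17 genes of the class II and interferon gamma list (29.4%), in 3.30% of the 8405 measured genes with a promoter and in 3.46% of all 27025 genes with a promoter. A gene was counted if any of its promoters matched. The Y box letters were in 0 of the 13, in 5 of the 17 (H2-Aa, H2-Eb1, Psmb9, Tap1 and H2-D1), in 6.23% of measured genes and in 4.43% of all genes with a promoter. Cd74, H2-Ab1, Ciita, Irf7 and Oas2 were not among the genes with a match, whether for lack of the letters or of a promoter. A match describes letters in this window only. Rsad2, which held the ISRE letters, lay within 1.5-fold between the libraries, whereas Isg15, Ifit1, Ifit3 and Bst2 were lower and Gbp2 higher in CD163_FL.

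**Figure D4:**
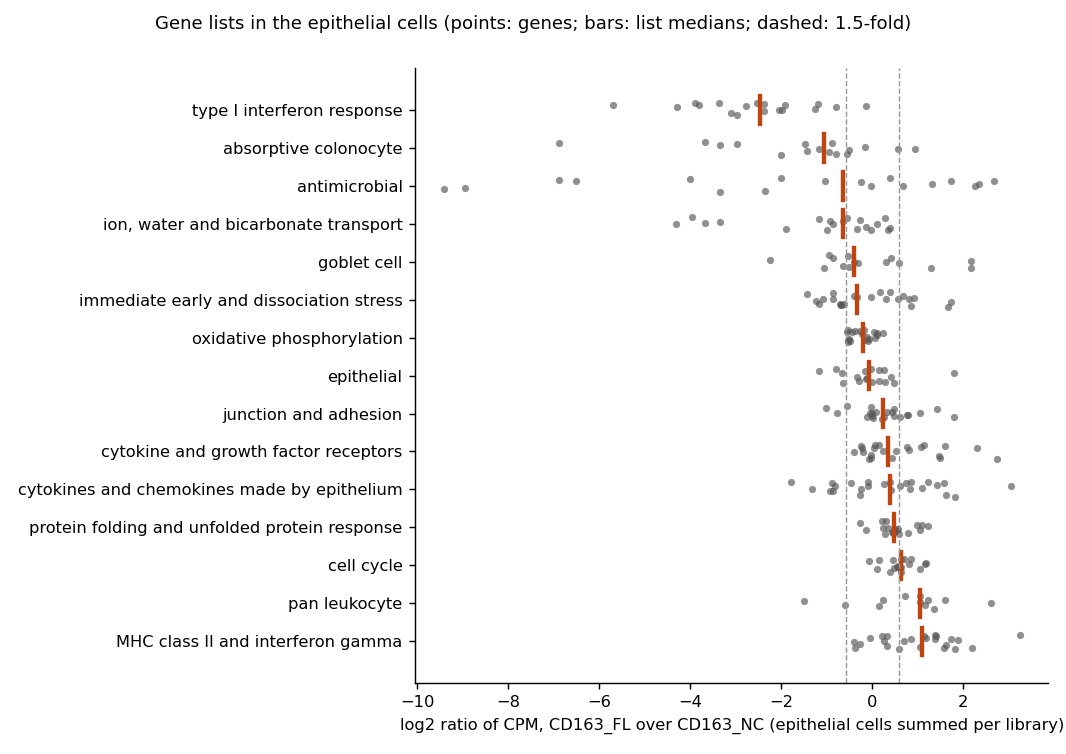
Log2 ratio of CPM, CD163_FL over CD163_NC, for the measured genes (points) of 15 lists in the epithelial cells, with a bar at each list's median and dashed lines at 1.5-fold. The lists drawn were chosen from 45. Among the 15 drawn, the type I interferon list had the lowest median, -2.46, and the MHC class II and interferon gamma list the highest, 1.08. Some lists not drawn went further, such as neutrophil (-3.25) and squamous epithelium (6.60), each with 5 measured genes. A gene without a UMI in 1 library is drawn at the ratio that 3 UMIs there would give.

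Genes of absorptive colonocytes were lower in CD163_FL. Of 16 measured genes 11 were lower and 1 higher (median -1.07), and the list summed to 4673 CPM in CD163_FL and 13135 CPM in CD163_NC. In subcluster 6, with 19 cells of CD163_NC and 0 of CD163_FL, the list stood at 23688 CPM. Lypd8 (chr11:58379043-58390728, plus strand), a secreted protein that binds the flagella of gut bacteria, stood at 2383 and 9565 CPM (-2.00, -2.05 to -1.96), with cell medians of 18.5 and 69.6 per 10000 UMIs. Guca2a, the peptide guanylin that drives fluid secretion, stood at 374 and 726 CPM (-0.96). Car1 was at 632 and 1433 CPM (-1.18), although a UMI was found in 33 of 57 and 57 of 130 cells, so its share of cells and its level ran in opposite directions. Saa1, an acute-phase protein, had 1 UMI in CD163_FL and 235 UMIs in CD163_NC (-6.88, -12.19 to -4.38). Emp1, a membrane protein, was the member higher in CD163_FL, at 535 and 279 CPM (0.94), but it was at -1.93 (-2.37 to -1.52) in subcluster 5, and Krt20, the keratin of surface cells, stood at 190 and 212 CPM (-0.16).

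The direction held in the absorptive colonocyte-like subcluster, where 13 of 14 measured genes were lower, Emp1 among them, and 1, the phosphate transporter gene Slc20a1, was higher (median -1.96). Of all genes in that subcluster 24.7% were lower and 23.1% higher. There Car1 stood at 3386 CPM in CD163_FL and 9801 CPM in CD163_NC (-1.53), Lypd8 was at -1.99, Cyp2c55, a cytochrome that oxidises fatty acids, at -1.22, and Krt20 at -1.50. Car1, Cyp2c55 and Saa1 also define that subcluster. In subcluster 1 the list was nearly split, with 4 of 8 measured genes lower and 3 higher (median -0.35), beside 22.5% and 20.6% of all genes. In the goblet cell-like subcluster 1 of 5 was lower and 2 higher (median 0.24), beside 15.1% and 24.8%. Absorptive genes were also lower in other kept barcodes, with 11 of 16 lower and 3 higher (median -1.54), beside 20.9% and 17.2% of all genes. Thinned Lypd8 was found in 73.2% of epithelial cells of CD163_FL and 86.6% of those of CD163_NC, against 0.241% and 3.0% of T cells.

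Ion, water and bicarbonate transport genes had 10 of 19 measured members lower and 0 higher (median -0.64). Car2, a carbonic anhydrase, stood at 409 CPM in CD163_FL and 817 CPM in CD163_NC (-0.998). Slc9a3, the apical sodium-hydrogen exchanger, stood at 1.64 and 25.7 CPM (-3.97, -6.27 to -2.38), with its 3 CD163_FL UMIs in 1 cell. Atp12a, the colonic proton-potassium pump, had 0 UMIs in CD163_FL and 120 in CD163_NC, at least 20.0-fold lower against a floor of 3 UMIs per library. The water channel gene Aqp4 stood at 454 and 421 CPM (0.11), and Slc26a3, the chloride-bicarbonate exchanger, at 83.6 and 124 CPM (-0.57).

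Goblet cell genes were split. Over all members 5 of 15 were lower and 4 higher (median -0.41), and within the goblet cell-like subcluster 8 of 15 were lower and 3 higher (-0.74), beside 15.1% and 24.8% of all genes there. The deep crypt secretory list, which shares Agr2 and Spink4, had 5 of 6 genes lower and 0 higher there. It summed to 24136 CPM in CD163_FL and 57361 CPM in CD163_NC. Whether the mix of secretory types differed was not tested. In that subcluster Muc2 stood at 6524 CPM in CD163_FL and 14916 CPM in CD163_NC (-1.19, -1.26 to -1.13), and Spink4, a secreted protease inhibitor, was at -1.41. Clca1, which loosens the mucus, was at -2.80, Fcgbp, a mucus component, at -1.50 and Agr2, which folds mucins, at -0.74. In the same cells Tff3, the trefoil peptide of repair, stood at 2296 and 606 CPM (1.92, 1.73 to 2.11). Over all members Tff3 was at 2.18, and without this subcluster it was at -5.07. Zg16, a lectin of the inner mucus, was also higher, but 92.9% of its CD163_FL UMIs came from 1 cell. Muc2 over all members was at -0.64, and allowing 1 Cd3 or Cd79a UMI in the gate turned it to 0.20.

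Antimicrobial genes ran both ways in this subcluster. Of 11 measured genes 4 were lower (Ang4, Itln1, Retnlb and Pglyrp1), 2 were higher (Slpi and Reg3g) and 5 lay within 1.5-fold (median -0.27). Of all genes there 15.1% were lower and 24.8% higher. Retnlb, a bactericidal resistin-like protein, stood at 2395 CPM in CD163_FL and 17982 CPM in CD163_NC of subcluster 4 (-2.91, -3.01 to -2.81). Ang4, an antimicrobial ribonuclease, was at -4.57 and Mptx1, a pentraxin outside that list, at -2.18. These 3 are among the leading genes of the subcluster. Slpi, a secreted protease inhibitor, had 47 UMIs in CD163_FL and 4 in CD163_NC of the subcluster (log2 interval 2.55 to 5.94), and Reg3g had 24 and 0.

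Antimicrobial genes as a whole had 6 of 18 measured members higher and 9 lower (median -0.65). In subcluster 5 the median was 0.12, with 4 of 10 higher and 4 lower, beside 23.1% and 24.7% of all genes there. Reg3b (chr6:78370657-78373466, plus strand) stood at 1903 CPM in CD163_FL and 299 CPM in CD163_NC (2.67, 2.57 to 2.77), with a UMI in 27 of 57 and 13 of 130 cells and a cell median of 0 in both. Its relative Reg3g stood at 376 and 79.2 CPM (2.25). By subcluster, Reg3b was at 2909 CPM in subcluster 2 and 2120 CPM in subcluster 5, and at most 81.6 CPM in the others. Within subcluster 5 it was at 0.55, within 1.5-fold. Duox2, an oxidase that makes hydrogen peroxide, stood at 122 and 37.2 CPM (1.72), and its partner Duoxa2 at 114 and 22.7 CPM (2.33), which was at -0.22 in the goblet cell-like subcluster alone. Dmbt1, a scavenger glycoprotein, stood at 1605 and 646 CPM (1.31) and at -0.039 in that subcluster.

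Among the lowest ratios of the antimicrobial list were genes that neutrophils express. S100a8 had 0 UMIs in the members of CD163_FL and 2970 in those of CD163_NC, at least 494.8-fold lower against a floor of 3 UMIs per library. Of the CD163_NC UMIs 89.3% lay in 1 cell, and T cells of that library held it at 971 CPM, above the 811 CPM of the members. Lcn2, which withholds iron from bacteria, had 2 and 366 UMIs, with 94.0% of the CD163_NC UMIs in 1 cell. The neutrophil list summed to 59.6 CPM in members of CD163_FL and 1590 CPM in members of CD163_NC, against 42.8 and 1941 CPM in T cells, so these values are not read as epithelial expression.

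Cytokine and chemokine genes that epithelium makes had 11 of 25 measured members higher and 6 lower (median 0.39). In subcluster 1 the same list had 3 of 14 higher and 4 lower (-0.32), beside 20.6% and 22.5% of all genes. In all other kept barcodes 11 of 27 were higher and 3 lower (0.39), beside 17.2% and 20.9%. Areg, a growth factor of the epidermal growth factor (EGF) family, stood at 881 CPM in CD163_FL and 583 CPM in CD163_NC (0.60, 0.50 to 0.69). Cxcl16, a chemokine for CXCR6+ lymphocytes, stood at 67.2 and 19.1 CPM (1.81), and Il1rn, the interleukin 1 receptor antagonist, at 124 and 58.7 CPM (1.08). Cxcl10, an interferon-induced chemokine, stood at 127 and 70.8 CPM (0.85), but at -1.06 within subcluster 1. Among the lower members, Ihh, the hedgehog ligand that signals to the stroma, stood at 20.2 and 69.9 CPM (-1.79), and at 0.44 in subcluster 5, and Ccl28, which attracts IgA plasma cells, at 37.7 and 70.2 CPM (-0.90). Il18, an interleukin that epithelium stores, stood at 62.3 and 86.1 CPM (-0.47).

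Cytokine and growth factor receptor genes had 9 of 22 measured members higher and 0 lower (median 0.33). In all other kept barcodes 11 of 23 were higher and 4 lower (0.52), beside 17.2% and 20.9% of all genes. In T cells 6 of 21 were higher and 5 lower (-0.07), beside 12.7% and 21.5%. Egfr, the EGF receptor, stood at 293 CPM in CD163_FL and 44.3 CPM in CD163_NC (2.73, 2.47 to 2.99), in 49 of 57 and 61 of 130 cells. Per cell its median was 1.28 per 10000 UMIs in CD163_FL and 0 in CD163_NC. Met, the receptor of hepatocyte growth factor, stood at 186 and 37.7 CPM (2.31), and Il13ra1, a chain of the interleukin 13 receptor, at 296 and 107 CPM (1.47). In the goblet cell-like subcluster 9 of 15 measured receptors were higher and 0 lower (median 1.07), beside 24.8% and 15.1% of all genes. Egfr was at 3.49 in that subcluster. There 1 CD163_FL cell had Egfr at 64.1 per 10000 UMIs and 1 at 13.8, and the others had at most 3.11. In the absorptive colonocyte-like subcluster 0 of 14 were higher and 3 lower (-0.23), beside 23.1% and 24.7% of all genes. Egfr was there at -0.04 (-1.80 to 1.40) from 5 and 22 UMIs and Met at -0.49 from 3 and 18.

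Junction genes had 6 of 22 measured members higher and 2 lower (median 0.24). Cldn4 stood at 329 CPM in CD163_FL and 94.5 CPM in CD163_NC (1.80), and the cadherin gene Cdh17 at 452 and 263 CPM (0.78), the last at -0.39 in subcluster 5. Cldn8, a sealing claudin of the distal colon, stood at 23.5 and 47.5 CPM (-1.02), and at 0.52 in subcluster 1. Cdh1, which encodes E-cadherin, stood at 1056 and 757 CPM (0.48), and Epcam, which the gate used, at 1812 and 1634 CPM (0.15).

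Genes named by the size of their ratio included small proline-rich proteins, which in skin are cross-linked into the cornified envelope. Sprr1a stood at 547 CPM in CD163_FL and 25.7 CPM in CD163_NC (4.41, 4.11 to 4.73), in 41 of 57 and 26 of 130 cells. Within subclusters 1 and 5 it lay within 1.5-fold, at 0.55 (-0.84 to 1.71) and 0.29 (-1.31 to 1.65), and in the goblet cell-like subcluster it had 213 and 0 UMIs. Thinned, 39.3% and 3.15% of epithelial cells had a Sprr1a UMI, against 0.08% and 0% of T cells. Sprr2h had 106 UMIs in 14 cells of CD163_FL and 1 UMI in CD163_NC (7.73, 5.22 to 13.05). The other 2 genes given here, chosen after their values were seen, were the integrin gene Itgav at 389 and 26.8 CPM (3.86) and Plaur, the urokinase receptor, at 383 and 67.5 CPM (2.51). In subcluster 5 these were at -0.76 and -0.07, from 4 and 6 UMIs of CD163_FL. T cells held Itgav at 233 and 180 CPM, above the epithelial level of CD163_NC. Sprr2h and Sprr1a lead subcluster 2, where the pan-leukocyte list was also highest.

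Of the 12 largest ratios, 10 rested on 1 cell. A single CD163_FL cell with 84379 UMIs held all 224 Krt5, 218 Krt6a, 246 Krt17, 203 Lgals7, 121 Fst and 83 Igfbp3 UMIs of the members, and 530 of 534 Krt14, 88 of 89 Krt16, 144 of 147 Nrg1 and 172 of 179 Calcb UMIs. Krt5 and Krt14 are the basal keratins of squamous epithelium. The same cell held 3 of 1000 Sprr1a UMIs. These ratios describe that cell and not the other 56 of the library.

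On the lower side the named genes that were not antiviral were spread over more cells in part. Nxpe2 stood at 5.47 CPM in CD163_FL and 102 CPM in CD163_NC (-4.22), in 5 and 62 cells. Kcnb2, a potassium channel gene, had 0 UMIs in CD163_FL and 190 UMIs in 4 cells of CD163_NC, and Abcb5 had 1 and 51 UMIs, each in 1 cell. Fut9, a fucosyltransferase gene, had 1 UMI in CD163_FL and 52 in CD163_NC. Hoxb13, a homeobox gene of the distal colon, stood at 71.6 and 220 CPM (-1.62, -1.90 to -1.35), in 27 of 57 and 98 of 130 cells, and at -0.13 within subcluster 1 and 1.47 within subcluster 4. Hoxd13, another distal gene, stood at 22.4 and 29.5 CPM (-0.40).

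Genes of protein folding and the unfolded protein response had 5 of 19 measured members higher and 0 lower (median 0.48). Hspa5, the main chaperone of the endoplasmic reticulum, stood at 1564 CPM in CD163_FL and 752 CPM in CD163_NC (1.06), and Hsp90b1 at 1038 and 608 CPM (0.77). In T cells 8 of 19 genes of the list were higher (median 0.43), beside 12.7% of all genes. Of 18 cell cycle genes 10 were higher and 0 lower (0.62), with Top2a at 109 and 60.4 CPM (0.85), the proliferation marker Mki67 at 90.7 and 61.7 CPM (0.56) and Ccnd1, a cyclin, at 234 and 103 CPM (1.18), the last at -0.14 in the goblet cell-like subcluster. T cells had 13 of 18 higher and 1 lower (0.89), beside 12.7% and 21.5% of all genes. Oxidative phosphorylation genes had 0 of 20 beyond 1.5-fold in either direction (median -0.20).

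Immediate early and dissociation stress genes had 6 of 23 higher and 10 lower (median -0.34). Fos, an early transcription factor, stood at 834 CPM in CD163_FL and 2251 CPM in CD163_NC (-1.43, -1.51 to -1.35), with cell medians of 4.83 and 19.3 per 10000 UMIs, and Atf3 at 692 and 1635 CPM (-1.24). Jun and Egr1 were both at -0.68. Gadd45a, a growth arrest gene, stood at 332 and 101 CPM (1.72). The list ran in opposite directions in subclusters 1 and 5. In subcluster 1, 13 of 23 were lower and 1 higher (median -0.67), beside 22.5% and 20.6% of all genes. In subcluster 5, which holds 5 cells of CD163_FL, 15 of 21 were higher and 1 lower (1.64), beside 23.1% and 24.7%. Within those, Fos was at -1.24 and 0.81, Jun at -0.89 and 0.81, Egr1 at -0.61 and 1.64 and Atf3 at -1.08 and 0.25, and Gadd45a was at -0.68 in subcluster 1. In the goblet cell-like subcluster 8 of 22 were higher and 2 lower (0.10), beside 24.8% and 15.1% of all genes, and Atf3 was at 0.028. In T cells 18 of 23 were lower and 1 higher (-1.22), beside 21.5% and 12.7% of all genes.

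**Figure D5:**
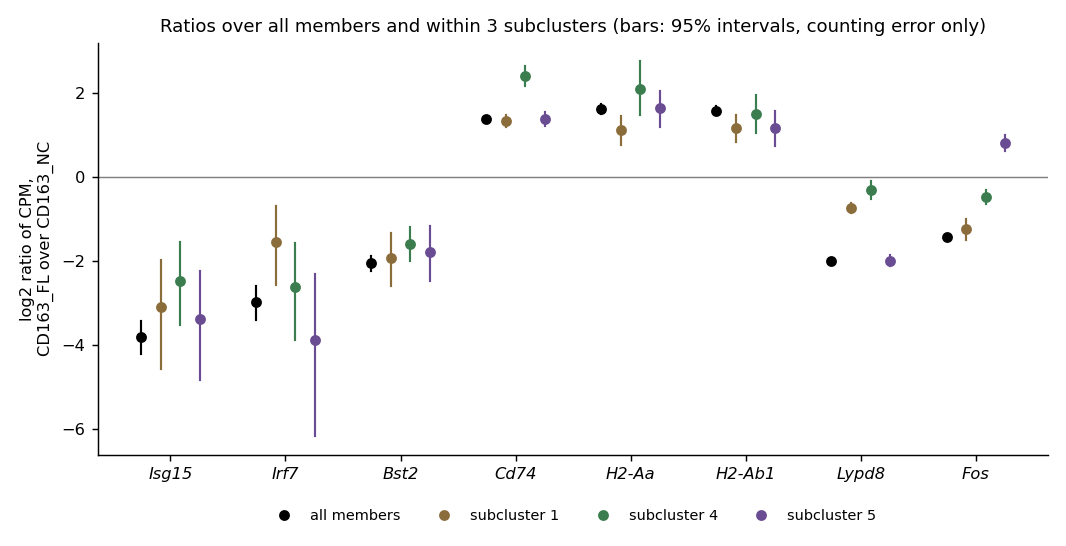
Log2 ratio of CPM, CD163_FL over CD163_NC, with 95% counting intervals, for 8 genes over all epithelial cells and within subclusters 1, 4 (goblet cell-like) and 5 (absorptive colonocyte-like). Isg15, Irf7 and Bst2 lie below 0 and Cd74, H2-Aa and H2-Ab1 above 0 in all 4 sets, while Fos is at -1.43 over all members and 0.81 in subcluster 5.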

How the data were processed

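The deposited matrices hold raw UMI counts for 32285 genes in each barcode, with no normalization. Per the file headers they came from Cell Ranger 7.1.0. Per the submitters' processing notes the build was mm10 and Seurat 4 was used, with no step named for it. The aligner's settings and the handling of free RNA were not given in the sources.

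Members and gene lists were chosen with earlier results of these data known. UMIs of the members were summed per library and scaled to CPM. A gene with at least 20 UMIs in both libraries together was measured, and it was called at or past 1.5-fold. Intervals are exact (Poisson, Clopper-Pearson or conditional binomial), at 95%, and PCR and sampling of cells are not covered. With 1 library per group no test was possible. For shares of cells, each cell was thinned to 1000 UMIs, which left out 1 member of CD163_FL and 3 of CD163_NC. The ratio and its interval were tested on simulated data.

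Named genes were the 12 largest and 12 smallest ratios with at least 50 UMIs in the higher library, an interval outside 1.5-fold and a CPM there at or above that of other barcodes, without mitochondrial, ribosomal, sex-linked, immunoglobulin, T cell receptor and unnamed gene models. Other genes are members of the lists, among the 20 highest member-to-other ratios or the 10 leading genes of a subcluster. Itgav and Plaur, and part of the list examples, were chosen after their values were seen. Reads of near copies (the Reg3, Ifit and class II genes) could be shared in counting. Some genes are not reported here.

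Members were clustered on 1500 variable genes, 15 components and 10 neighbours (Leiden, resolution 0.5). A name needed fixed markers among the 10 leading genes and at least 3 detected, a rule set after the clusters were seen. Scrublet called 4.40% of CD163_FL and 2.47% of CD163_NC barcodes as doublets, among them 1 and 0 members, which were kept. Tools were Python 3.11.15, numpy 2.4.6, scipy 1.17.1, scanpy 1.11.5, scikit-learn 1.9.0, python-igraph 0.11.9 and matplotlib 3.10.9. Gene positions are from GENCODE mouse release 21 and promoters are from RefSeq.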

Additional observations from a re-analysis of the deposited data

How the results depend on the processing

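The epithelial share stayed lower in CD163_FL under the 5 other gates and filters, with 59 and 145 cells in the looser gate, 55 and 126 in the stricter one, 56 and 130 without doublet calls, 72 and 154 with 1 Cd3 or Cd79a UMI allowed, and a CD163_NC share of 1.69% at 25% mitochondrial UMIs. Counts of genes moved most with depth and thresholds. Genes at least 1.5-fold higher in CD163_FL numbered 1727, and 399 in thinned cells, 3238 at 1 UMI, 777 at 2-fold and 1027 in the absorptive colonocyte-like subcluster. Genes lower numbered 1823, and 346 in thinned cells, 1209 at 50 UMIs, 819 at 2-fold, 921 in the goblet cell-like subcluster and 1100 in the absorptive one. Both together were 3550, and 745, 5885, 1596 and 2127 in thinned cells, at 1 UMI, at 2-fold and in the absorptive one. In the goblet cell-like subcluster alone the absorptive list median was 0.24, Duoxa2 -0.22, Dmbt1 -0.039, Ccnd1 -0.14, Atf3 0.028, Hoxb13 1.47, Pparg -0.0074, Pdk4 -0.48, Adh1 2.82 and Mgst3 0.52. Without it Tff3 was -5.07. In the absorptive colonocyte-like subcluster alone the antimicrobial list median was 0.12, Emp1 -1.93, Ihh 0.44, Egfr -0.038, Met -0.49, Cdh17 -0.39, Fos 0.81, Jun 0.81, Egr1 1.64, Atf3 0.25, Itgav -0.76, Plaur -0.071, Pparg -0.46, Cyp2c65 -0.91, Eps8 -1.14 and Ndrg1 -2.04 (0 UMIs in CD163_FL, at a floor of 3). In the largest subcluster Cxcl10 was -1.06, Cldn8 0.52, Gadd45a -0.68, Pparg -0.017 and Hes1 1.21. With 1 Cd3 or Cd79a UMI allowed Muc2 was 0.20. The causes were not tested. Median ratio scaling and leaving out immunoglobulin genes reversed none of 120 genes and 23 list medians. Neither setting could change much, so they are a weak check. The median log2 ratio was already 0.00, and the plasma cell list, which holds immunoglobulin genes, summed to 3349 CPM in CD163_FL and 3057 CPM in CD163_NC. Free RNA subtraction gave values for 102 of the 120 genes and 20 of the 23 medians and reversed none, but 25 genes moved beyond their interval. Leaving out the Krt5-positive cell gave 110 genes and 22 medians, reversed none and moved 7 genes. More genes moved in other settings, with 45 of 68 given in thinned cells and 63 of 81 in the largest subcluster. In the goblet cell-like subcluster 59 of 77 moved, and in the absorptive colonocyte-like one 51 of 75. Reversed genes are not counted among these. The alternatives with 1 Cd3 or Cd79a UMI, with and without the goblet cell-like subcluster, in the absorptive colonocyte-like subcluster and without the Krt5-positive cell were chosen after seeing the data. No paired analysis was possible because each group has 1 library.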

Other observations

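Of 17 measured butyrate and lipid metabolism genes 2 were higher and 2 lower in CD163_FL (median -0.07). Pparg, a nuclear receptor of colonocytes, stood at 382 CPM in CD163_FL and 148 CPM in CD163_NC (1.37), Pdk4, which diverts pyruvate from oxidation, at 1.70, and the alcohol dehydrogenase gene Adh1 at 75.4 and 274 CPM (-1.86). Pparg was at -0.017 within subcluster 1 and -0.46 within subcluster 5, and within the goblet cell-like subcluster Pparg was at -0.0074, Pdk4 at -0.48 and Adh1 at 2.82. Of 18 xenobiotic genes 3 were higher and 6 lower (-0.31), among them Mgst3, a glutathione transferase, at 428 and 928 CPM (-1.12) but at 0.52 within the goblet cell-like subcluster, Sult1a1, a sulfotransferase, at 124 and 226 CPM (-0.86), and Cyp2c65, a cytochrome, at 125 and 60.9 CPM (1.03) but at -0.91 (-1.58 to -0.31) within the absorptive colonocyte-like subcluster.

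Of 22 measured epithelial transcription factor genes 3 were higher and 5 lower (-0.26). Ets2 stood at 359 CPM in CD163_FL and 161 CPM in CD163_NC (1.16), and Hes1, the Notch target that favours absorptive fate, at 118 and 241 CPM (-1.03) but at 1.21 within subcluster 1. Of 17 brush border genes 3 were higher and 3 lower (-0.01), with the actin-capping gene Eps8 at 580.5 and 258 CPM (1.17) but at -1.14 (-1.72 to -0.62) within the absorptive colonocyte-like subcluster. Of 20 glycolysis and hypoxia genes 3 were higher and 2 lower (-0.26), with the hypoxia-induced gene Ndrg1 at 233 and 54.4 CPM (2.10). In the absorptive colonocyte-like subcluster 1 of 16 glycolysis and hypoxia genes was higher and 7 lower (-0.44), beside 23.1% and 24.7% of all genes. Ndrg1 had 0 UMIs in CD163_FL and 53 in CD163_NC there.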
